A study of Homo sapiens with 3 samples.

Results

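Fibrinogen chains and acute-phase proteins are 10 genes of secreted plasma proteins, namely FGA, FGB, FGG, SERPINA1, SERPINA3, SAA1, SAA2, LCN2, C3 and HP, among 58735 genes counted. The rows were taken by gene name, and the members were selected on earlier results from the same contrasts, so their differences from the control are a description and carry no test. RNA was sequenced from A549, a long-established line of human lung adenocarcinoma cells, with 1 library for each of 3 conditions. Control-sh is the control of the knockdown, and DDX24-sh1 and DDX24-sh2 carry a first and a second shRNA against the RNA helicase DDX24. All cells were grown in F12K medium with 10% FBS at 37 °C and 5% CO2, and libraries were built from 4 μg of total RNA. The lines were made with lentiviral pLKO.1 vectors and kept under puromycin. The labels do not say what the control carries. The study's methods name an empty pLKO.1 vector and a legend names a control shRNA, so which of them Control-sh holds is not known.

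Fibrinogen is the soluble plasma protein that thrombin turns into fibrin, the mesh of a blood clot. It is a dimer of alpha, beta and gamma chains, which are encoded by neighbouring genes and assembled in the endoplasmic reticulum. Acute-phase proteins are secreted mainly by hepatocytes when inflammation raises IL-6 and IL-1, which act through STAT3, C/EBP factors and NF-kB. Lung epithelial cells, A549 among them, can also make fibrinogen when exposed to IL-6 and glucocorticoid.

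The chain genes share a locus on chromosome 4 of GRCh38. FGB (ENSG00000171564) lies on the plus strand from 154562956 to 154571086, FGA (ENSG00000171560) on the minus strand from 154583126 to 154590766, and FGG (ENSG00000171557) on the minus strand from 154604134 to 154612967. Between them lie 12039 bases from FGB to FGA and 13367 bases from FGA to FGG. Of the 10 members, 6 had a RefSeq promoter window (GRCh38.p14), and the 3 chain genes are shown because they were low together in both knockdown libraries. The windows hold the 250 bases before the RefSeq start, 5′ to 3′ on the strand of the gene, at chr4:154590743-154590992 for FGA, chr4:154562730-154562979 for FGB and chr4:154612657-154612906 for FGG. Capitals mark every match, on either strand, to 4 short motifs.
FGA promoter: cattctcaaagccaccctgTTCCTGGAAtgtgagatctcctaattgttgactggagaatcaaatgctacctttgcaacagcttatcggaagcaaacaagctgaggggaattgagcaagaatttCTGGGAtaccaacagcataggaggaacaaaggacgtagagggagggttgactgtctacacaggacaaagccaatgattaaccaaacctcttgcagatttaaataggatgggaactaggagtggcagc
FGB promoter: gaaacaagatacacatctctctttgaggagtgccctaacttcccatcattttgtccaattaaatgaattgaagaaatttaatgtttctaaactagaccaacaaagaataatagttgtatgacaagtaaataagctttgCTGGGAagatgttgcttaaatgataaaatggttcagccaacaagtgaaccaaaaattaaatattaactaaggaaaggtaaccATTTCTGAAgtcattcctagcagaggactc
FGG promoter: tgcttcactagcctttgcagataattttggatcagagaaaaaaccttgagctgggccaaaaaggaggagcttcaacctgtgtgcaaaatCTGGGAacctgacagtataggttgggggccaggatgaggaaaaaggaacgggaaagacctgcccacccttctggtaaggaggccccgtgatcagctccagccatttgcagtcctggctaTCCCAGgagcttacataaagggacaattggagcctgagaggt

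The motif CTGGGA, of the type found in IL-6 response elements, was present in all 3 chain windows. Counting the base before the start as -1, it spanned -127 to -122 in FGA, -112 to -107 in FGB and -161 to -156 in FGG, each on the gene's own strand. FGG held a further match on the opposite strand, from -42 to -37. The windows of SERPINA1, SERPINA3 and LCN2 held none. CTGGGA is short and common, and 28.7% of all 35116 RefSeq windows of that length held it. The C/EBP type motif TTNNGNAAT was found in FGB and SERPINA3 (9.85% of all windows). FGA alone of the 6 held the STAT motif TTCNNNGAA (6.57% of all windows), and none of the 6 held the NF-kB type motif GGGANTTTC (1.12% of all windows). In FGA the STAT match lay from -231 to -223. None of these matches overlapped another. A match is a description of the sequence and was not tested as a binding site.

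**Figure D1:**
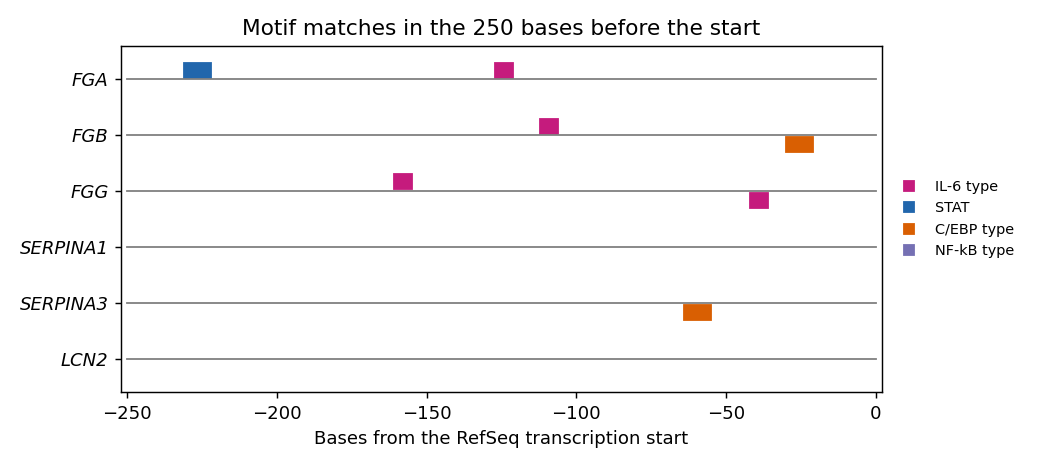
Matches to 4 motifs along the 250 bases before the RefSeq start (x axis, bases from the start) of the 6 members with a window, boxes above each line on the gene's strand or on both strands and below it on the opposite strand. CTGGGA (IL-6 type) appears in the 3 fibrinogen chains and in no other member shown.

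The counts summed to 17218884 in Control-sh, against 18337471 with DDX24-sh1 and 17847190 with DDX24-sh2. Mitochondrial genes took 4.36%, 5.13% and 7.04% of them. Ratios to Control-sh were taken from CPM, the counts scaled to library size, after TMM scaling, with a prior count of 2. Percentages of the control level and the 95% intervals come from the scaled counts without the prior and cover counting error only. DDX24 itself was counted 2010 times in Control-sh, 637 times in DDX24-sh1 and 765 times in DDX24-sh2. The knockdown libraries thus held 29.6% and 36.0% of its control level, in the direction of their labels. In the deposited FPKM the names of both knockdown libraries are exchanged relative to the counts. Within 1%, the FPKM labelled DDX24-sh1 was proportional to the counts labelled DDX24-sh2 in 100% of genes with at least 50 counts. To the counts of its own label it was so in 5.23%. DDX24-sh1 and DDX24-sh2 refer here to the labels on the counts.

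The cell line was checked against markers. All 6 epithelial markers passed a mean of 1 CPM, led by KRT8, and their summed level was 7705 CPM in Control-sh, against 7790 CPM with DDX24-sh1 and 7782 CPM with DDX24-sh2. The sum rests mostly on KRT7, KRT8 and KRT18, and single markers differed in direction. KRT19 was 2-fold higher in both knockdown libraries (log2 ratios 1.07 and 1.36). CDH1, or E-cadherin, had 538, 358 and 261 counts, which is 62.1% and 45.9% of its control level (log2 ratios -0.68 and -1.12). The alveolar type II cell list was mostly absent. SFTPA1, SFTPA2 and NKX2-1 had 0 counts in every library, and ABCA3 made up most of that list's signal.

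Of the fibrinogen chains, FGA was by far the most counted, and all 3 chains were about 10-fold lower or more in both knockdown libraries. FGA, the alpha chain, had 625 counts in Control-sh, against 68 with DDX24-sh1 and 42 with DDX24-sh2. FGB, the beta chain, had 54, 4 and 5 counts in the same order. FGG, the gamma chain, had 71, 6 and 5 counts. For each chain the control library was the high one, and the counting intervals of the knockdown libraries lay below it.

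Relative to Control-sh, FGA held 10.2% of its level with DDX24-sh1 (interval 7.79% to 13.1%) and 6.35% with DDX24-sh2 (interval 4.53% to 8.69%). Its log2 ratios were -3.26 and -3.91. FGB held 6.91% (interval 1.82% to 18.7%) and 8.76% (interval 2.73% to 21.7%), with log2 ratios of -3.31 and -3.07. FGG held 7.89% (interval 2.80% to 18.03%) and 6.66% (interval 2.098% to 16.3%), with log2 ratios of -3.28 and -3.46. The log2 ratios of FGB and FGG are drawn toward 0 by the prior count, since only 4 to 6 reads stand behind them in the knockdown libraries. Ordered by the smaller of the 2 changes, FGG, FGA and FGB ranked 2, 3 and 6 from the lowest among the 13984 genes whose mean over the libraries reached 1 CPM. The ranks describe the values on which the members were chosen, and FGB and FGG reached that mean only through Control-sh, where they were high. Summed over the chains, 750 counts in Control-sh stood against 78 with DDX24-sh1 and 52 with DDX24-sh2.

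**Figure D2:**
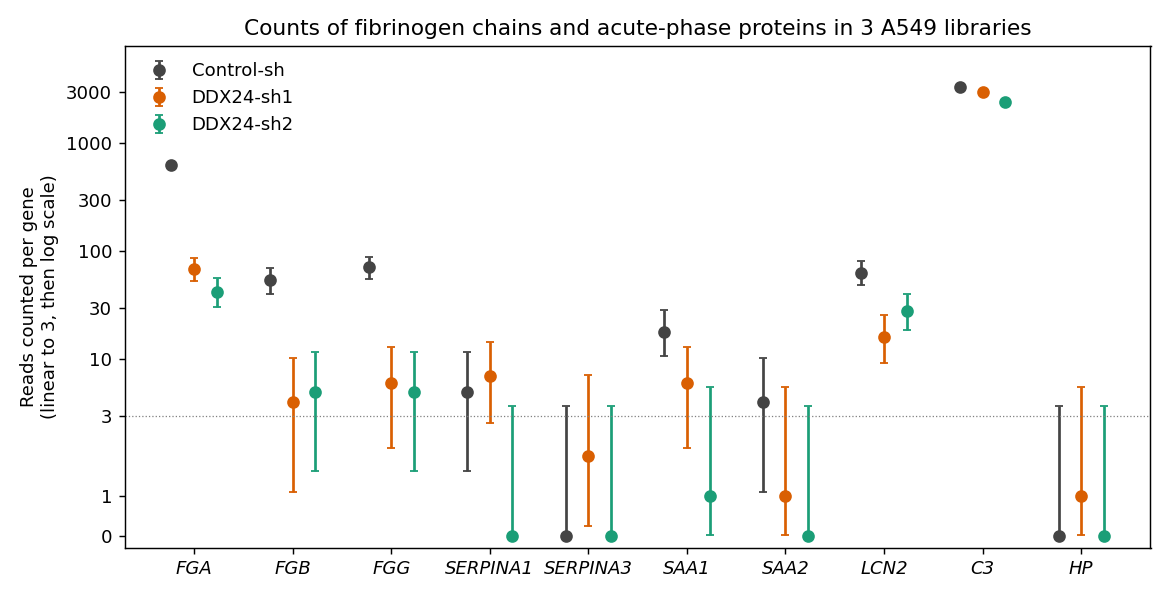
Reads counted on each of the 10 members (y axis, linear up to 3 counts and logarithmic above) in each of the 3 libraries, with exact 95% Poisson intervals and 1 library a condition. FGA was counted 625, 68 and 42 times, C3 between 2402 and 3332 times, and SERPINA3 and HP at most 2 times in any.

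The chains did not stand at equal levels per kilobase of the deposited gene length, whose error the intervals do not cover. Per length, the FGA level in Control-sh was 9.26 CPM per kilobase, against 1.17 for FGB and 1.16 for FGG. The FGA level was thus 7.92 times that of FGB in the control library (interval 5.99 to 10.7) and 8.01 times that of FGG (interval 6.26 to 10.4), while FGB and FGG stood at a ratio of 1.01 (interval 0.696 to 1.46). FGA was also the highest of the chains in both knockdown libraries. FGA was 11.6 times FGB with DDX24-sh1 (interval 4.34 to 43.9) and 5.75 times FGB with DDX24-sh2 (interval 2.28 to 18.6). The FGA to FGB ratio in DDX24-sh1 was 1.47 times that of the control with an interval of 0.517 to 5.75, and in DDX24-sh2 it was 0.726 times that of the control with an interval of 0.271 to 2.45. The intervals of the other chain pairs also included the control ratio, so a change in the proportion of the chains was not detectable at this depth.

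The neighbouring genes on chromosome 4 did not share these ratios. PLRG1, a component of the spliceosome, lies on the other side of FGB with 12520 bases between them, and it had 1113, 1000 and 1081 counts in the same order of libraries. Its log2 ratios were -0.25 and -0.12. LRAT, which esterifies retinol, lies 13977 bases beyond FGG and had 0, 5 and 12 counts, too few for a mean of 1 CPM. Its log2 ratios were 1.78 and 2.79, with intervals that start at -0.23 and 1.39 and have no upper limit. LRAT was thus higher beyond counting error in DDX24-sh2 alone, on few reads. Within 200 kb of any member, 35 other genes reached a mean of 1 CPM, and 0 of them were 2-fold lower or 2-fold higher in both knockdown libraries. Over all genes tested, 1.38% were lower and 1.19% higher in both, so 0 of 35 is near the background. The log2 ratios of these neighbours ran from -0.93 to 1.15 with DDX24-sh1 and from -0.85 to 0.66 with DDX24-sh2.

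Serum amyloid A proteins are apolipoproteins of high-density lipoprotein that climb steeply in plasma during inflammation. SAA1 (ENSG00000173432) lies on the plus strand of chromosome 11 from 18266174 to 18269977, and SAA2 (ENSG00000134339) on the minus strand from 18239223 to 18248643. SAA1 had 18 counts in Control-sh, against 6 with DDX24-sh1 and 1 with DDX24-sh2. That is 31.1% of the control level with DDX24-sh1 (interval 10.1% to 81.8%) and 5.25% with DDX24-sh2 (interval 0.126% to 33.3%). SAA2 had 4, 1 and 0 counts, and both intervals reached past the control level. A SAA1 transcript is 97.7% identical to a SAA2 transcript over 616 bases, so reads can be assigned to either gene. Their sum was 22, 7 and 1 counts, or 29.7% (interval 10.7% to 72.0%) and 4.30% (interval 0.104% to 26.6%) of the control. SAA1 was thus lower in both knockdown libraries beyond counting error, on few reads.

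LCN2 (ENSG00000148346; plus strand of chromosome 9, 128149071 to 128153455) encodes lipocalin 2, which binds iron-carrying siderophores. It had 63 counts in Control-sh, against 16 with DDX24-sh1 and 28 with DDX24-sh2. The level was 23.7% of the control with DDX24-sh1 (interval 12.8% to 41.5%) and 42.0% with DDX24-sh2 (interval 25.9% to 66.6%), with log2 ratios of -1.95 and -1.19. The knockdown libraries were both below the control and differed from each other by no more than counting error. None of the LCN2 neighbours was 2-fold lower or higher in both libraries. The nearest, C9orf16, had log2 ratios of 0.03 and -0.05.

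C3 (ENSG00000125730; minus strand of chromosome 19, 6677704 to 6730562), the central protein of the complement cascade, was the most abundant member. It had 3332 counts in Control-sh, against 2976 with DDX24-sh1 and 2402 with DDX24-sh2. The level was 83.3% of the control with DDX24-sh1 (interval 79.3% to 87.6%) and 68.2% with DDX24-sh2 (interval 64.7% to 71.9%). These differences exceeded counting error but stayed within 2-fold, with log2 ratios of -0.26 and -0.55. C3 overlaps GPR108 on the same strand from 6729914 to 6730562. GPR108 had 842, 893 and 704 counts.

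The serpins and haptoglobin were hardly counted. SERPINA1 (alpha-1-antitrypsin, the main inhibitor of neutrophil elastase; minus strand of chromosome 14, 94376747 to 94390693) had 5 counts in Control-sh, against 7 with DDX24-sh1 and 0 with DDX24-sh2. SERPINA3 (alpha-1-antichymotrypsin; plus strand of chromosome 14, 94612377 to 94624055) had 0, 2 and 0 counts. HP (haptoglobin, which binds free hemoglobin; plus strand of chromosome 16, 72054592 to 72061055) had 0, 1 and 0 counts. As a one-sided 95% limit, a count of 0 allows up to 3 counts, and the two-sided Poisson intervals drawn for the members reach somewhat further. The limit of 3 counts is 0.176 CPM in Control-sh, against 0.164 CPM with DDX24-sh1 and 0.166 CPM with DDX24-sh2. For SERPINA3 and HP no difference was detectable at this depth. The interval of SERPINA1 in DDX24-sh2 reached 103% of the control level and that in DDX24-sh1 ran from 35.7% to 522%. SERPINA1 lies on the chromosome of the targeted gene, with 295501 bases between DDX24 and SERPINA1. HP overlaps TXNL4B on the opposite strand, and SERPINA3 shares its span with AL049839.2.

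Per length, the order of the members in Control-sh was C3 (23.4 CPM per kilobase), FGA (9.26), LCN2 (2.31), SAA1 (1.33), FGB (1.17), FGG (1.16), SAA2 (0.105) and SERPINA1 (0.0598), with SERPINA3 and HP at 0 counts. The counting intervals of C3 and FGA lay apart from each other and from all others. Those of LCN2 and SAA1 overlapped, as did those of SAA1, FGB and FGG and those of SAA2 and SERPINA1. In DDX24-sh1 the levels were 19.5 CPM per kilobase for C3, 0.940 for FGA, 0.547 for LCN2 and 0.412 for SAA1. FGA then overlapped LCN2 in its interval. In DDX24-sh2 LCN2, at 0.971 CPM per kilobase, stood above FGA, at 0.588, although their intervals overlapped.

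Of the 10 members, 5 reached a mean of 1 CPM over the libraries, namely FGA, FGB, FGG, LCN2 and C3. Among these, all but C3 were at least 2-fold lower in both knockdown libraries, against 1.38% of the 13984 genes tested. In single libraries, 2.27% of the genes tested were 2-fold lower in DDX24-sh1 and 3.07% in DDX24-sh2. FGB and FGG exceeded 1 CPM in Control-sh alone, so they entered the 5 only through the library in which they were high, and the members were chosen with these ratios known. The count is given as a description. Just inside the limit of 1 CPM lay FGB, with a mean of 1.22 CPM, and just outside it SAA1, with 0.479 CPM. In bulk RNA, fewer cells making a transcript and less transcript in each cell cannot be told apart. Since the control is a single culture, its state and the depletion of DDX24 cannot be told apart either.

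**Figure D3:**
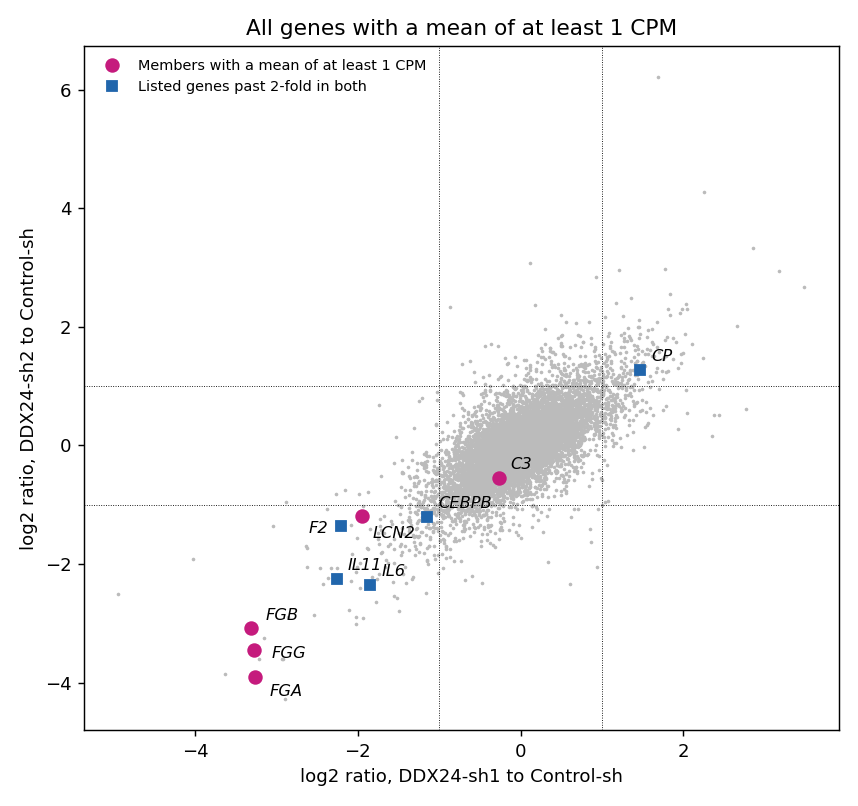
Log2 ratios to Control-sh in DDX24-sh1 (x axis) and DDX24-sh2 (y axis) of the 13984 genes whose mean reached 1 CPM, which share the control library. The 3 fibrinogen chains lie at the lower left edge between -3.07 and -3.91, LCN2 nearer the dotted 2-fold lines and C3 inside them; squares are listed genes past 2-fold in both libraries.

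The knockdown libraries were also compared directly, which leaves out the control. FGA was lower in DDX24-sh2 than in DDX24-sh1, with a log2 ratio of -0.65 (interval -1.27 to -0.10). C3 was lower as well, at -0.29 (interval -0.37 to -0.21). For LCN2 the ratio was 0.75 (interval -0.11 to 1.81), for FGB 0.23 (interval -1.875 to 2.67) and for FGG -0.18 (interval -2.29 to 1.73), none of them distinguishable from 0 at this depth. SERPINA1, with 7 counts against 0, was also lower in DDX24-sh2, with an upper limit of -0.51 for the log2 ratio. The intervals of SAA1, SAA2, SERPINA3 and HP included 0. DDX24 itself was 0.28 higher with DDX24-sh2 (interval 0.13 to 0.44). The sign of these differences depends on which deposited label is right, and their replication was not tested.

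Genes with ratios most like those of the fibrinogen chains were sought among the 11100 genes whose mean reached 5 CPM, by Euclidean distance from the mean chain ratios of -3.28 with DDX24-sh1 and -3.48 with DDX24-sh2. The 5 nearest were ULBP1 (distance 0.272), a ligand of the NKG2D receptor, ATF3 (0.383) and DDIT3 (0.505), transcription factors of stress responses, ANKRD1 (0.722), a muscle ankyrin repeat protein, and CHAC1 (0.886), which degrades glutathione. ANKRD1 had 378, 54 and 52 counts and log2 ratios of -2.86 and -2.90. All 5 reached the mean of 5 CPM only through Control-sh, the library in which they were high. Likeness over 2 ratios that share a control is a description.

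Other genes of the acute-phase response and its neighbours in function were read from 7 lists of 115 genes in all, of which 59 reached a mean of 1 CPM. Of these, 4 were 2-fold lower in both knockdown libraries (6.78%, background 1.38%) and 1 was 2-fold higher in both (background 1.19%). The lists, like the members, were chosen with earlier results of these data known, so these counts are a description. The lower genes were IL6, IL11, CEBPB and F2, and the higher gene was CP. F2 was above 1 CPM in Control-sh alone (2.17 CPM, against 0.383 with DDX24-sh1 and 0.776 with DDX24-sh2), so it too entered the count only through the library in which it was high. The median log2 ratio over all 13984 genes tested was -0.02 with DDX24-sh1 and -0.03 with DDX24-sh2. Listed genes named below beyond these and the 2 most abundant of each list were chosen after their values were seen.

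Among ligands, receptors and transducers of IL-6 and IL-1, 19 of 23 genes reached a mean of 1 CPM, 3 were 2-fold lower in both libraries and 0 were 2-fold higher. The medians were -0.29 with DDX24-sh1 and -0.25 with DDX24-sh2. IL6, the main inducer of acute-phase genes, had 592 counts in Control-sh, against 175 with DDX24-sh1 and 121 with DDX24-sh2, which is 27.6% and 19.3% of the control level. IL11, which signals through the same receptor subunit, had 1203, 268 and 267 counts (20.8% and 21.0%).

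Of the other genes tested in the list, CEBPD, a further C/EBP factor, was past 2-fold in DDX24-sh2 alone (-0.60 and -1.18), and the rest were within 2-fold in both libraries. IL6R, the receptor for IL-6, had log2 ratios of -0.13 and 0.15, IL6ST, the shared signalling subunit, -0.43 and -0.29, and OSMR, the oncostatin M receptor, -0.31 and -0.77. LIF, a cytokine that also signals through IL6ST, stood at -0.58 and -0.46. The most abundant genes of the list were TNFRSF1A, a TNF receptor (0.16 and 0.12), and STAT3, the transcription factor downstream of IL-6 (0.22 and -0.08). SOCS3, a STAT3-induced feedback inhibitor, stood at -0.40 and -0.56. CEBPB, a C/EBP factor first described at IL-6 responsive promoters, had 7518, 3640 and 3438 counts, with a log2 ratio of -1.15 (interval -1.20 to -1.09) for the first shRNA and of -1.21 (interval -1.27 to -1.15) for the second.

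Liver-type transcription factors, which drive fibrinogen and other plasma protein genes in hepatocytes, had 9 of 11 genes at a mean of 1 CPM or more. None of the 9 was 2-fold lower or higher in both libraries, and the medians were -0.27 and -0.31. NR3C1, the glucocorticoid receptor, and NR5A2, a nuclear receptor, were the most abundant, with log2 ratios of -0.27 and -0.31 and of 0.16 and 0.24. FOXA2 had 730, 363 and 402 counts and lay at the 2-fold limit (-1.10 and -0.94). FOXA3, with 44, 33 and 13 counts, was past 2-fold in DDX24-sh2 alone (-0.49 and -1.69).

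In the list of other acute-phase proteins that rise, 8 of 24 genes reached a mean of 1 CPM, with medians of 0.01 and -0.17. Whether each of the 24 rises in human plasma was not checked. Those 8 stood closer to the control than the fibrinogen chains, which were chosen with their ratios known. CP, the copper-carrying ferroxidase ceruloplasmin, was higher, with 89 counts in Control-sh, against 268 with DDX24-sh1 and 230 with DDX24-sh2. That is a log2 ratio of 1.47 (interval 1.14 to 1.85) for the first shRNA and of 1.27 (interval 0.93 to 1.66) for the second. The ferritin chains FTL (0.06 and 0.10) and FTH1 (0.17 and -0.24) were the most abundant. C1S, a protease of the classical complement pathway, stood at 0.34 and 0.18, its partner C1R at -0.03 and -0.36, and PTX3, a pentraxin, at -0.90 and -0.96. CRP, APCS, ORM2, ITIH4 and HAMP had 0 counts in all libraries. Of 10 plasma proteins that decline in the acute phase, F12 and RBP4 alone reached a mean of 1 CPM. RBP4, the retinol carrier, had log2 ratios of -0.95 and -0.78, and F12, coagulation factor XII, -0.12 and -0.78.

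**Figure D4:**
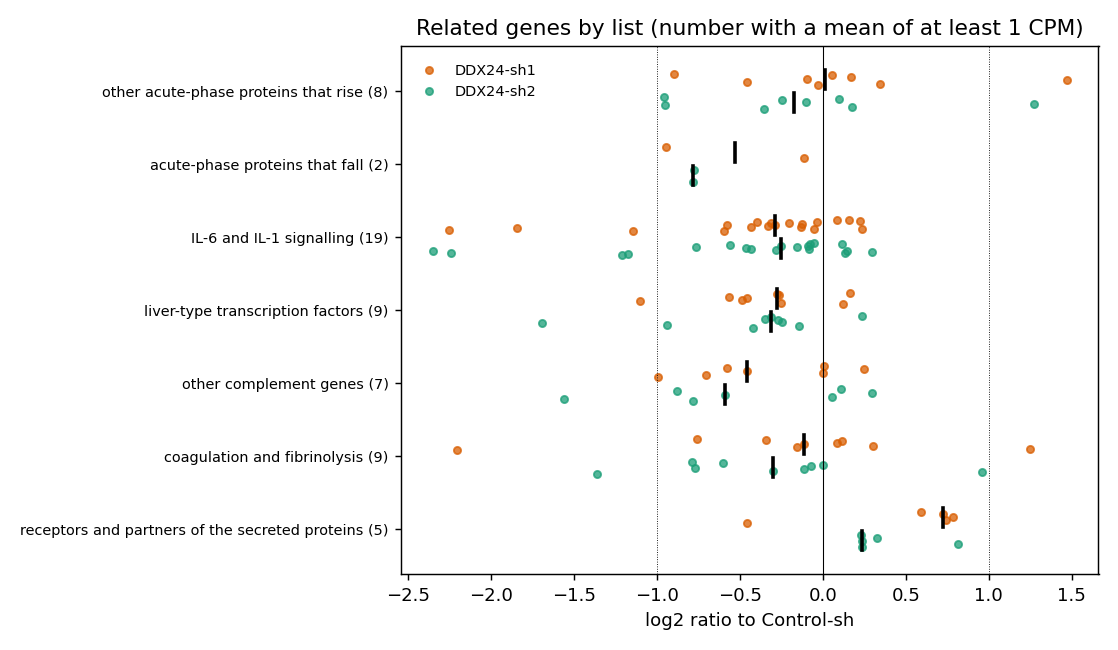
Log2 ratios to Control-sh (x axis) of the genes of 7 lists whose mean reached 1 CPM, 1 point a gene and library, with the list median as a black bar and dotted lines at 2-fold. IL6, IL11 and CEBPB lie left of the 2-fold line in both libraries in the IL-6 and IL-1 list, and CP lies right of it among other acute-phase proteins.

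Of 15 other complement genes, 7 reached a mean of 1 CPM and 0 were 2-fold lower or higher in both libraries, with medians of -0.46 and -0.59. Those with a mean of 10 CPM or more had medians of -0.23 and -0.27. The membrane regulators CD46 (0 and 0.05) and CD59 (0.25 and 0.29) were the most abundant. C5, cleaved after C3 in the cascade, had 1172, 629 and 719 counts (-0.995 and -0.78). C5AR1, the receptor of the C5 fragment C5a, had 205, 134 and 72 counts and was past 2-fold in DDX24-sh2 alone (-0.70 and -1.56). Coagulation and fibrinolysis genes had 9 of 17 at a mean of 1 CPM or more and medians of -0.11 and -0.30. F2, prothrombin, whose active form cleaves fibrinogen, had 37 counts in Control-sh, against 7 with DDX24-sh1 and 14 with DDX24-sh2, with a log2 ratio of -2.20 (interval -3.91 to -1.32) for the first shRNA and of -1.36 (interval -2.49 to -0.56) for the second. F3, tissue factor, which starts coagulation, was higher, with 35, 92 and 74 counts (1.25 and 0.96). PLAU, the urokinase plasminogen activator, and TFPI, the inhibitor of the tissue factor pathway, were the most abundant and stood at -0.16 and -0.30 and at -0.34 and -0.60.

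Receptors and partners of the secreted proteins had 5 of 15 genes at a mean of 1 CPM or more, and 0 were 2-fold lower or higher in both libraries. Their medians were 0.73 and 0.24. SCARB1, a receptor of high-density lipoprotein, had log2 ratios of 0.73 and 0.33, and LRP1, an endocytic receptor, 0.79 and 0.24. SLC22A17, described as a receptor of lipocalin 2, stood at 0.59 and 0.23.

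**Figure D5:**
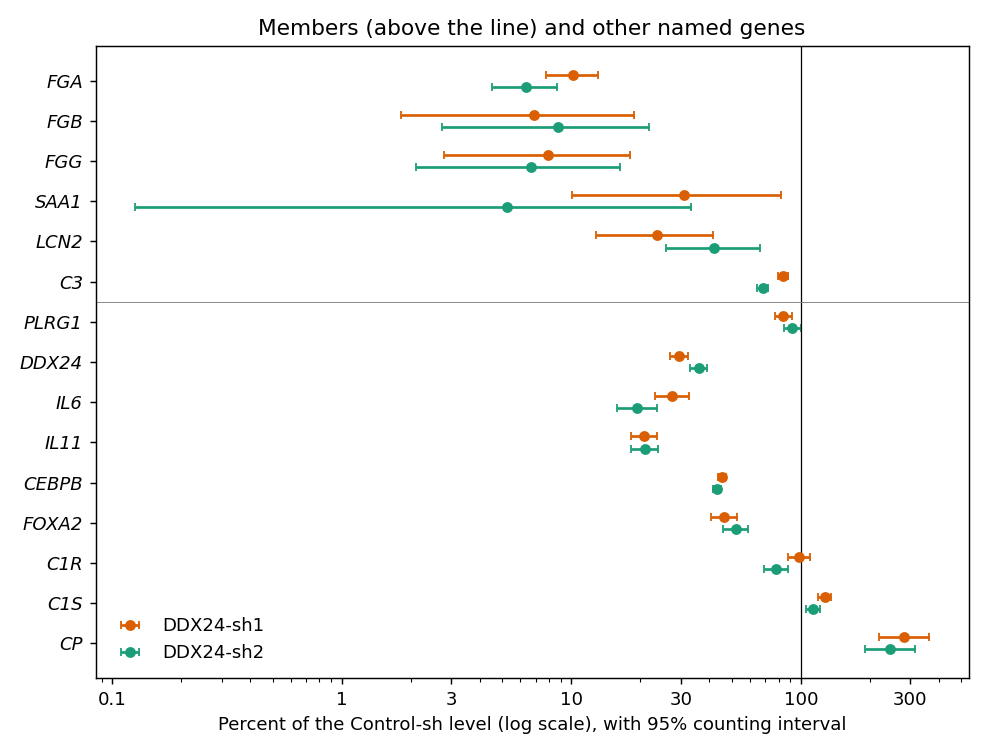
Level in each knockdown library as a percent of Control-sh (x axis, log scale) with exact 95% counting intervals, for 6 members above the grey line and 9 other named genes below it. The 3 fibrinogen chains lie near 10% or below, LCN2 and IL6 between 19% and 42%, C3 at 83.3% and 68.2%, PLRG1 at 83.8% and 91.8%, and CP above 200%.

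Markers of other cell types were read beside these results. Of 9 hepatocyte markers, CPS1 and APOH reached a mean of 1 CPM, and 0 were 2-fold lower in both libraries. Their summed level was 31.4 CPM in Control-sh, against 14.1 with DDX24-sh1 and 18.8 with DDX24-sh2. That sum rested mostly on CPS1, with 27.5, 12.1 and 14.5 CPM (470, 221 and 262 counts). APOH had 46, 21 and 43 counts and ASGR1, below a mean of 1 CPM, had 14, 8 and 23. The markers thus did not move together in DDX24-sh2. ALB had 0, 0 and 3 counts and APOB 0 in every library. Of 6 leukocyte markers, PTPRC and CD3E had 0 counts throughout, and the sum was 3.22, 2.30 and 3.88 CPM, mostly from ITGAM. The 8 fibroblast and endothelial markers summed to 11.9, 17 and 13.1 CPM, with COL1A1 the most abundant and LUM higher in both knockdown libraries (27, 80 and 68 counts). The part of the hepatocyte markers, and of the mitochondrial share that was highest in DDX24-sh2, in the lower fibrinogen counts was not tested.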

How the data were processed

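The authors deposited, for each of 3 libraries, counts per gene (whole numbers, not normalized) and FPKM (fragments normalized to gene length and library size) for 58735 genes. The submitters' processing notes name Bowtie2 2.0.6, TopHat2 2.0.9, Cufflinks 2.1.1 and Cuffdiff 2.1.1. The counter, its strand setting and its treatment of reads with several matches are not given in the sources used here. All 58735 genes matched GENCODE 29 (GRCh38) in identifier, start and end.

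Ratios were computed from the counts in R 4.3.3 with edgeR 4.0.16 (TMM scaling, log2 CPM, prior count of 2). With 1 library for each condition, neither a model nor a p-value was computed. Intervals are exact 95% conditional binomial (Clopper-Pearson) intervals for ratios and exact Poisson intervals for levels. They cover counting error only, and PCR copies were not told apart by molecular identifiers. Proportions between chains were compared by conditional odds ratios (scipy 1.17.1). Levels between genes were compared as CPM per kilobase of the deposited gene length. That length can exceed a single transcript, as for SAA2 (2227 bases, against 1022 for its longest protein-coding transcript), so the per-length order depends on it.

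The members and lists were chosen with earlier results of these data known. Named genes were DDX24, the members, listed genes past 2-fold in both libraries, the 2 most abundant genes of each list, neighbours within 200 kb and the 5 genes nearest in ratio to the chains. Further listed genes, markers and low-count genes named in the text were chosen after their values were seen. Where a gene had several RefSeq windows, the one nearest the 5′ end of the GENCODE gene was used, and motif shares were taken over all windows. Similar transcripts were sought with BLAST 2.17.0. The 2-fold call and the coverage of the ratio intervals were tested on simulated Poisson counts. That simulation left out genes with few reads and variation between cultures, and the other steps were not simulated. Figures were drawn with matplotlib 3.10.9. Alternatives were DESeq2 1.42.0 size factors, total counts, a prior count of 0.5, the deposited FPKM as log2(FPKM + 0.1) with its labels as given or exchanged, other limits on CPM and fold, and summed gene pairs. A planned motif and some listed genes are not reported here.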

Additional observations from a re-analysis of the deposited data

How the results depend on the processing

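No replicate exists for any condition, so no value could be set against variation between cultures, and no replicate could be left out. No paired analysis was possible because each condition has 1 library. DESeq2 size factors, total counts, a prior count of 0.5 and the FPKM with exchanged labels moved 0 of 20 member ratios beyond their counting intervals. Intervals that involve a count of 0 are open-ended, so for those ratios this says little. The FPKM with exchanged labels is proportional to the same counts, so apart from the added 0.1 it repeats them. DESeq2 size factors and total counts shifted the ratios of a library nearly alike and by little. The absence of moves was therefore largely fixed in advance. With the prior count of 0.5, the DDX24-sh2 ratio of SERPINA1 went from -1.85 to -3.515 and that of SAA2 from -1.63 to -3.22. The FPKM with labels as given moved 7, and SERPINA1 changed sign in both libraries, from 0.29 to -0.67 with DDX24-sh1 and from -1.85 to 0.16 with DDX24-sh2. The FPKM so labelled gave DDX24 log2 ratios of -1.45 with DDX24-sh1 and -1.72 with DDX24-sh2. It also moved 10 of 14 list medians by at least 0.1, a limit of 10 CPM moved 5, and the other scalings 0. The median of all genes tested lay between -0.03 and 0.0029 under the 3 scalings. Members 2-fold lower in both libraries numbered 4, and 6 with no filter on low counts. SAA1 and SAA2 then joined, although both SAA2 intervals reached past the control level. These numbers are a description, since the members were chosen with their ratios known. There were 3 at 4-fold and 1 (FGA) with a mean of at least 10 CPM. FGA reached that mean only through Control-sh, where it was high (36.6 CPM, against 3.72 with DDX24-sh1 and 2.33 with DDX24-sh2). All genes lower in both numbered 193, and 912 with no filter on low counts, 105 with a mean of at least 10 CPM, 660 at 1.5-fold, 26 at 4-fold, 318 when lower in DDX24-sh1 was enough and 430 when lower in DDX24-sh2 was enough, as the looser or stricter limits imply. Summing SAA1 with SAA2 moved no ratio beyond its interval. HPR had 0 counts in every library, so summing it with HP could not change a ratio and tests nothing. SAA2, SERPINA1, SERPINA3 and HP had at most 7 counts in any library, which limits what can be read from them. A SERPINA3 transcript is 100% identical to one of AL049839.2 over 1523 bases. The part of read assignment in its low counts was not tested.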

Other observations

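Some listed genes below a mean of 1 CPM had counts that moved with the libraries, and they were picked after their values were seen. CFB, the complement factor B of the alternative pathway that acts with C3, had 3 counts in Control-sh, against 19 with DDX24-sh1 and 15 with DDX24-sh2, with intervals for the log2 ratio of 0.80 to 4.96 and 0.42 to 4.67. IL1A, an IL-1 cytokine, had 21, 6 and 4 counts. PRTN3, a neutrophil serine protease inhibited by alpha-1-antitrypsin, had 26, 12 and 2 counts. F7, coagulation factor VII, had 9, 0 and 2 counts. LBP, from the list of acute-phase proteins that rise, had 6, 0 and 1 counts. HPX, hemopexin, had 1, 0 and 11 counts, so its higher count was in DDX24-sh2 alone.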
